A study of Mus musculus with 6 samples.

Results

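A set of 6 marker genes of tendon cells was examined in satellite cells of the mouse, which are stem cells that lie along muscle fibres. The genes were Scx, Mkx, Tnmd, Thbs4, Comp and Cilp2, and they make up 6 of the 19938 genes measured. Each was read from its own probe set, the only one that the platform annotation gives to that gene alone. The set was chosen by expression values, namely by differences between the arrays of freshly sorted cells, so the values on those arrays are given as a description with no test. Only Thbs4 and Tnmd carried that spread: on fresh replicate 1 they stood far above the other fresh arrays, while Scx, Mkx, Comp and Cilp2 spanned 0.06 to 0.57 on the log2 scale over the fresh arrays. The set is therefore better described as 2 tendon genes that were high on 1 array beside 4 that were not.

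RNA came from C57BL/6J mice of 2 months, with 3 arrays of fresh and 3 of cultured cells. The sort of hind-limb, abdominal and triceps muscle kept CXCR4-positive, beta-1 integrin-positive cells and removed those with Sca1, Ter119, CD11b, CD31 or CD45. Cultured cells then spent 5 days on collagen and laminin in F10 medium holding 20% horse serum, with 5 ng/ml of basic FGF added daily. The labels name 3 mice without tying any array to a mouse, so a p-value here speaks only of the spread between arrays, part of which can be technical, and 3 arrays a group limit the precision.

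Tendon cells are fibroblast-like cells that lay down the collagen fibres joining muscle to bone. Scx is a basic helix-loop-helix factor that pairs with E proteins, binds E-box sequences and marks tendon progenitors, and Mkx is a homeobox factor of the same lineage. The other genes of the set encode Tnmd, a transmembrane glycoprotein of mature tendon cells, and matrix proteins. Of the latter, Thbs4 and Comp are related members of the thrombospondin family, and Cilp2 is a protein of cartilage and fibrous matrix. Muscle meets tendon at the myotendinous junction, where Thbs4 is part of the matrix.

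The promoters of Thbs4 and Tnmd are shown because these were the 2 genes that were high on the same array. Promoter entries from RefSeq (GRCm38.p6) were used for 3 of the 6 genes, namely Thbs4, Tnmd and Cilp2. The 250 bases before the annotated start are printed 5′ to 3′, for Thbs4 from chr13:92794819-92795068 on the minus strand and for Tnmd from chrX:133850758-133851007 on the plus strand. Capitals mark the E-box CANNTG.
Thbs4: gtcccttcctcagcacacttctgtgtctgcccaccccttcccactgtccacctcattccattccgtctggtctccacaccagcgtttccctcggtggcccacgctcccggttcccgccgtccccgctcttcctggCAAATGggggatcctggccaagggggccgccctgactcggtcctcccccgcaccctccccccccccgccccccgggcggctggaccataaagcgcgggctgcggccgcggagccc
Tnmd: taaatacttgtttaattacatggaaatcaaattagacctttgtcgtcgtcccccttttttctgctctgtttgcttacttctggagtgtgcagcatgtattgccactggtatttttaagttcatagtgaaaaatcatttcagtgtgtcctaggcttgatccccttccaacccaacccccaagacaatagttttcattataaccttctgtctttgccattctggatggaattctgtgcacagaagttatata
The Thbs4 window held 1 match to CANNTG, searched on both strands, and the Tnmd window held 0. Of 32851 promoter windows of this length, 66.2% held at least 1 such match. Neither window held the Egr motif GCGNGGGCG or the AP-1 motif TGANTCA, which were found in 4.70% and 6.75% of windows. Base composition differed, at 70.8% G and C for Thbs4 and 38.4% for Tnmd, against a median of 52.4%. The Cilp2 window, not shown, held 1 match to CANNTG and 1 to GCGNGGGCG.

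All values that follow are deposited log2 expression values. As a background level served the value that 95% of 1194 receptor genes of smell (Olfr and Vmn symbols) did not exceed. It lay between 3.17 and 3.23 on the fresh and between 3.23 and 3.40 on the cultured arrays. Markers of satellite cells were present: all 20 listed genes exceeded this level on every fresh array, and 18 to 19 did on the cultured arrays. The array medians lay close together, but the 99th percentile over probe sets was 9.43 and 9.96 on cultured replicates 2 and 3 against 11.9 to 12.2 on the other arrays, so bright genes are not on equal terms across the cultured arrays. The 6 genes lie far below that range, though the culture comparison of Scx still depended on the scaling, as given below.

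Thbs4, the matrix thrombospondin of tendon, was at 6.11, 3.89 and 2.98 on fresh replicates 1, 2 and 3. On cultured replicates 1, 2 and 3 it was at 3.41, 3.89 and 3.80. Fresh replicate 1 was thus the high array. The other 5 lay lower, with overlap between fresh and cultured cells, and fresh replicate 3 alone was below background. Fresh replicate 1 exceeded fresh replicate 2 by 2.21 and fresh replicate 3 by 3.13 on the log2 scale. With dim values set to background, the difference from the mean of the other fresh arrays corresponded to at least 5.85-fold. Its gap to the nearer fresh array ranked 3 among all 19938 genes.

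Tnmd, the membrane protein of mature tendon cells, was at 4.86, 2.57 and 2.93 on fresh replicates 1, 2 and 3. The cultured arrays gave 2.58, 2.61 and 3.00. Only fresh replicate 1 was above background, and the other 5 arrays were not above it. Against background in place of the dim values, fresh replicate 1 was at least 3.15-fold above the mean of fresh replicates 2 and 3. The gap of 1.93 on the log2 scale to the nearer fresh array ranked 5 among all genes. Over the 6 arrays Tnmd and Thbs4 had a Pearson r of 0.90, a description that rests on the shared high value of 1 array.

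The transcription factors of the lineage did not share this pattern. Scx was at 5.26, 5.23 and 4.69 on fresh replicates 1, 2 and 3, so fresh replicates 1 and 2 were nearly equal and fresh replicate 3 was the low one. Its cultured values of 6.22, 5.59 and 5.95 all lay above the fresh values. Mkx was at 2.92, 2.89 and 2.86 on the fresh arrays, all within background, and at 2.99, 3.59 and 3.32 on the cultured arrays. Cultured replicates 2 and 3 were the 2 arrays on which Mkx exceeded background, by a small margin.

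Comp, the thrombospondin of cartilage and tendon matrix, was flat across the study. It was at 4.02, 4.05 and 3.90 on the fresh arrays and at 3.98, 3.97 and 4.06 on the cultured arrays. Every array was above background, the groups overlapped, and the whole spread was smaller than that of any other gene of the set. Cilp2, a matrix protein related to Cilp of cartilage, was at 4.54, 4.19 and 4.14 on fresh replicates 1, 2 and 3, with fresh replicate 1 higher by 0.34 than the next. On cultured replicates 1, 2 and 3 it was at 4.43, 5.04 and 4.19, so its highest value was on a cultured array.

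**Figure D1:**
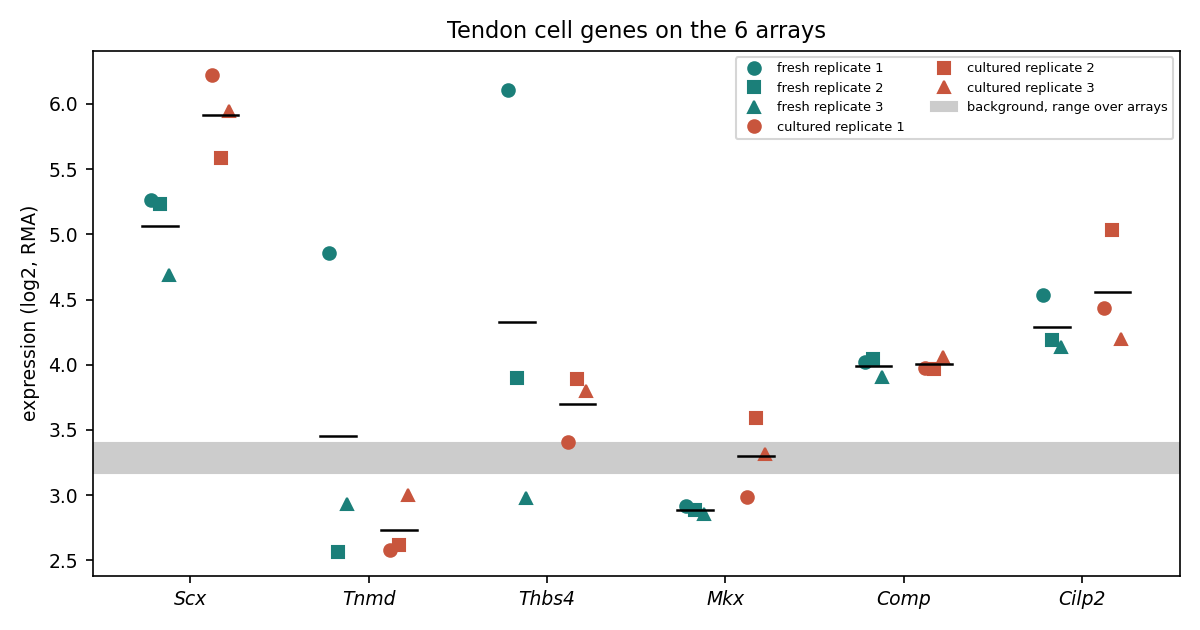
Expression of the 6 tendon cell genes (log2) on each of the 6 arrays, with fresh arrays in green, cultured arrays in red, marker shape for the replicate number, black bars for group means (n = 3) and a grey band for the range of background over the arrays. Fresh replicate 1 stands alone at 6.11 for Thbs4 and 4.86 for Tnmd, while Comp stays between 3.90 and 4.06 and Scx is higher on all 3 cultured arrays.

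To place these values, every gene was asked whether it lay at least 1 (log2) above both other fresh arrays on fresh replicate 1, and 54 of 19938 did, or 0.271%. Of the 6 genes, Thbs4 and Tnmd did so, which follows from how the set was chosen and is no support for it. A further 75 genes, 0.376%, lay at least 1 below both. The counts were 61 higher and 14 lower on fresh replicate 2 and 24 and 26 on fresh replicate 3, and none of the 6 genes was among them. Of the 54 genes, 15 were receptor, predicted, small RNA or immunoglobulin genes. Set against the other cultured arrays, cultured replicate 1 had 707 genes higher and 6 lower by this measure. Cultured replicate 2 had 24 and 157, and cultured replicate 3 had 34 and 4. None of the 6 genes was apart on any cultured array.

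A wider list of 50 genes of tendon and its collagen matrix, 49 of them measured, was used to see whether other such genes shared the pattern. Of the 43 outside the set, 4 lay at least 1 above both other fresh arrays, 9.30% against 0.271% of all genes. They were Chad, Fmod, Kera and Col1a2. Because the list was drawn up with earlier results of these data known, these shares are a description and no independent support. The list median of fresh replicate 1 minus the mean of the other fresh arrays was 0.16 for these 43 genes and -0.01 for all genes, with 28 of the 43 above 0 and 15 below. No listed gene was apart upward on fresh replicates 2 or 3 or on any cultured array.

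Chad, a leucine-rich adhesion protein of cartilage and tendon, was at 6.78 on fresh replicate 1 and at 3.56 and 3.97 on fresh replicates 2 and 3. Fmod, the proteoglycan fibromodulin that binds collagen fibrils, was at 6.08, 3.35 and 2.57. These 2 genes had the widest gaps of all genes on that array, 2.81 and 2.73 on the log2 scale. Kera, the related proteoglycan keratocan, was at 3.70, 2.37 and 2.66, above background on fresh replicate 1 alone. Col1a2, a chain of type I collagen, was at 5.90, 4.75 and 4.86, whereas its partner chain Col1a1 was at 5.37, 5.21 and 5.16. Among listed genes just short of that gap, the lubricating proteoglycan Prg4 was at 3.87, 3.02 and 2.59, Ecrg4 at 5.23, 4.07 and 4.43, and the proteoglycan Aspn at 2.99, 1.96 and 2.05, the last within background on every array. Dcn, the small proteoglycan decorin, instead stood low on fresh replicate 3, at 8.53, 7.78 and 5.86. The early-response factor Egr1 (9.76, 10.66 and 10.30) and the matricellular Thbs1 (3.73, 4.35 and 4.38) had the lowest differences of the list on fresh replicate 1.

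**Figure D2:**
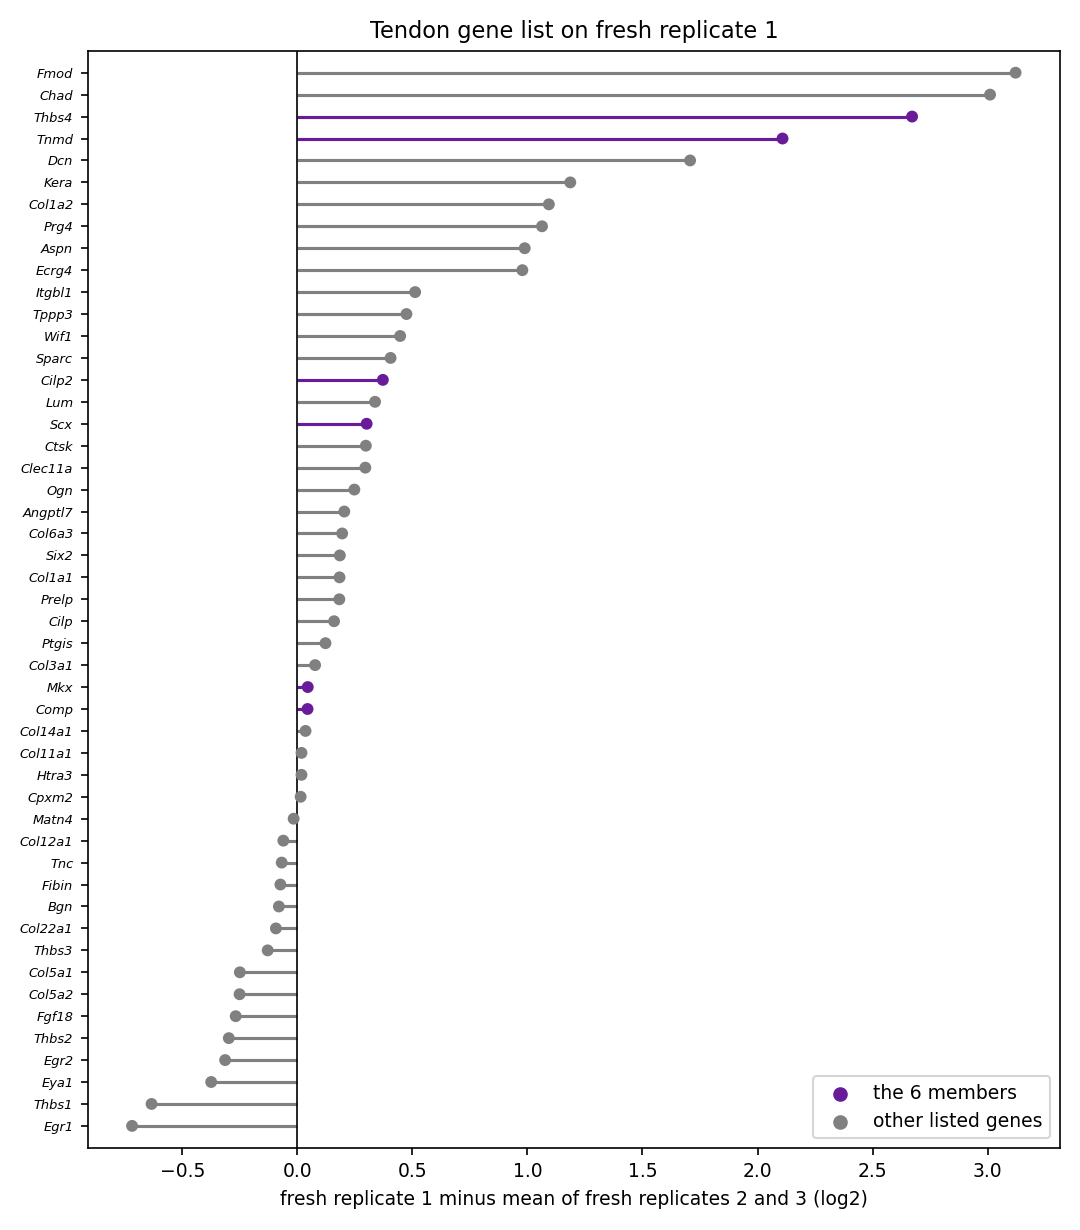
Difference of fresh replicate 1 from the mean of fresh replicates 2 and 3 (log2, horizontal axis) for the 49 measured genes of the tendon list, 1 line per gene, with the 6 genes of the set in purple. Fmod, Chad, Thbs4 and Tnmd lie above 2, and Dcn, Kera, Col1a2 and Prg4 lie at 1.06 to 1.71. Scx, Cilp2, Mkx and Comp lie at 0.04 to 0.37.

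Of the 5 thrombospondins, Thbs4 alone was high on fresh replicate 1, and the differences of the others from the mean of fresh replicates 2 and 3 lay between -0.63 and 0.04. Among 27 regulators of tendon development (TGF-beta, GDF and FGF ligands, E proteins and others) none was apart by 1 in either direction, with a median of -0.13 and a range of -0.69 to 0.51. The cartilage list had a median of 0.04 and a range of -0.43 to 0.38 over 16 genes, also with none apart. Among cartilage genes proper, Col2a1 and Sox9 were above background on every array and did not show the gap of Thbs4, Tnmd and Chad. Acan was within background on every array. Chad, a gene of cartilage as well as tendon, was counted in the tendon list.

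Markers of other cells were set beside the pattern. Their part in the result was not tested, and in bulk RNA fewer cells of a type and less RNA per cell cannot be told apart. Satellite cell genes were on the low side on fresh replicate 1, with 16 of 20 below the mean of the other fresh arrays and a median of -0.30. The largest of these differences were those of Calcr (4.88, 5.64 and 6.19 on fresh replicates 1, 2 and 3), Chodl and Itga7. Their mean log2 level was 6.75, 7.07 and 7.004 on fresh replicates 1, 2 and 3. The myofibre list, led by Actn3, Pvalb and Myh4, likewise had a median of -0.26, with 11 of 18 genes below 0.

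No other list reached the differences of Thbs4 and Tnmd. The fibro-adipogenic list overlaps the tendon list in Dcn and Lum. Its mean log2 level was 4.74, 4.87 and 4.48 on fresh replicates 1, 2 and 3, with a median difference of 0.02 over 18 genes. By difference of fresh replicate 1 from the mean of the other fresh arrays, Dcn (1.71), Cd34 (-0.90) and Cxcl14 (-0.50) moved most. In the mural list (median 0.13, 12 genes) the smooth-muscle gene Tagln was at 6.96, 5.35 and 5.94 and was the 1 gene apart by 1, ahead of Acta2 and Rgs5. In the Schwann list (median 0.00, 12 genes) it was Sox10, at 4.56, 3.47 and 3.26. Next in size there were Ngfr (-0.49) and Kcna1 (-0.28), which lay on the low side. The perineurial list had a median of 0.01 over 10 genes. Cldn1 (2.95, 2.03 and 2.00) was the furthest and within background, then Slc2a1 (-0.34) and Efnb3 (0.30). Endothelial genes had a median of -0.02 over 12 genes, with the largest differences in Tek (-0.39), Kdr (0.38) and Esam (0.23). Pecam1 was below background on every array. Haematopoietic genes had a median of 0.24 over 13 genes, with 11 of the 13 above 0. Of all 19938 genes, 9777 were above 0. The haematopoietic list was led by Lyz2 and Cd79a, both below background on every array, and S100a9. The defining gene Ptprc was at 2.66, 2.18 and 1.95 on fresh replicates 1, 2 and 3, below background on every array, and 4 of the 13 genes exceeded background on each fresh array.

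**Figure D3:**
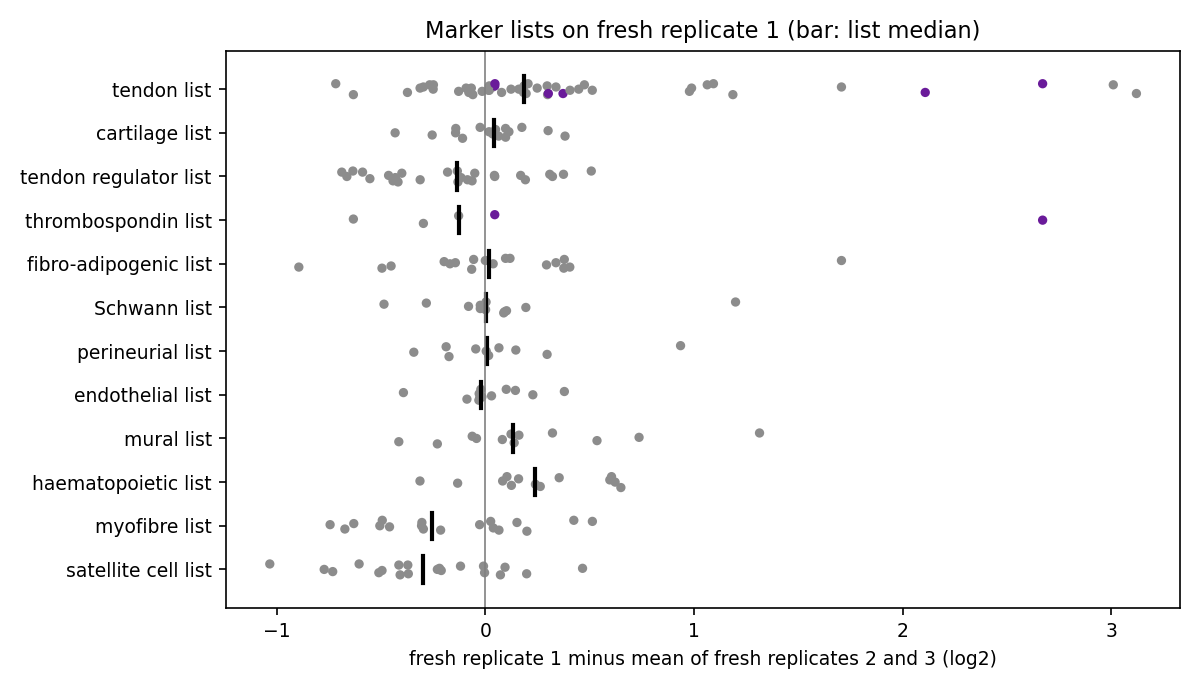
Difference of fresh replicate 1 from the mean of fresh replicates 2 and 3 (log2, horizontal axis) for the genes of 12 lists, 1 point per gene, purple for genes of the set and a black bar for the list median. The median is -0.30 for satellite cell genes and 0.18 for the tendon list, whose far points are Fmod, Chad, Thbs4 and Tnmd.

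Outside the lists, the potassium channel gene Kcnj14 (5.43, 3.43 and 2.43 on fresh replicates 1, 2 and 3) had a gap to the nearer fresh array that ranked between those of Thbs4 and Tnmd. The orders that follow leave out receptor, predicted, small RNA and immunoglobulin genes. After Tnmd came Phf11a and Mgp, an inhibitor of calcification, at 6.80, 5.20 and 3.11, followed by Lage3, C1d and the muscle respiratory subunit Cox7a1. In the other direction, Wtap, a subunit of the RNA methylation complex, was furthest, at 4.03 against 6.34 and 6.96. H2-Q4, Fndc3c1, Fbxw7, Pdk4, Peg3, Eloa, Appbp2, Papola and Ipo7 followed, with gaps of -1.59 to -1.24 on the log2 scale.

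Likeness over the 6 arrays was measured as Pearson's r, outside the set and the families left out above. It covered 648 genes with a range of at least 1 over the fresh arrays. These candidates were thus kept by the same fresh arrays on which the set was chosen, and the nearest genes of Tnmd and Thbs4 share with them the high value on fresh replicate 1, so r is a description only. For Tnmd the nearest were 2 tendon genes, Chad (0.99) and Kera (0.99). For Thbs4 they were Kcnj14 (0.99) and Igfbp6 (0.98), a binding protein of insulin-like growth factors. Scx was nearest to genes that were high in culture, the mitotic spindle gene Ckap2 (0.98) and the replication factor Fam111a (0.97). Comp was nearest to Rims4 (0.99) and Fyn (0.93), Cilp2 to Man1b1 (0.80) and Ttc29 (0.77), and Mkx to Cmc2 (0.65) and Itgb2l (0.63). Comp itself stayed between 3.90 and 4.06, so its r rests on very small differences. Against the mean profile of the 6 genes the nearest were Itgae (0.99), Fndc8, Tmem30b, Bod1, Tmem189, Sh2d2a, Arih2, Chst12, Igfbp6 and Adprm (0.90), of which Itgae, Fndc8 and Sh2d2a exceeded background on 1 array. Among the 6 genes themselves, the highest r after Thbs4 and Tnmd was that of Mkx and Cilp2 (0.69), both highest on cultured replicate 2.

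The comparison of cultured with fresh cells asks what changes when satellite cells leave muscle and grow for 5 days. With limma and Benjamini-Hochberg adjustment over all genes, 861 genes passed an adjusted p of 0.05, 4.32% of those tested, and none of the 6 tendon cell genes did. At an unadjusted p under 0.05, 2 of them passed, Scx and Mkx, both higher in culture, where 17.6% of all genes passed in either direction and 8.58% upward. These were also the 2 whose groups did not overlap, as was true of 23.2% of all genes. The spread between fresh arrays on which the set was chosen enters the error of this test, so a miss by Thbs4 or Tnmd is partly fixed by the choice. The median difference of the 6 genes was 0.14, against 0.04 for all genes, and it was 0.03 without cultured replicate 2, 0.33 without fresh replicate 1 and 0.08 with arrays centred on their median.

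Scx averaged 5.06 ± 0.32 (SD, n = 3) in fresh and 5.92 ± 0.32 in cultured cells. The difference of 0.86 ± 0.22 (SE) on the log2 scale was larger than the spread within either group but missed the threshold, with a limma adjusted p of 0.0838 and a 95% interval of 0.34 to 1.38. It passed in 3 of 15 other settings, at adjusted p of 0.00453 after quantile normalization, 0.00880 with cyclic loess and 0.0259 with array weights, and over all 15 settings the adjusted p ran up to 0.249. The difference was positive in each of them.

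Mkx averaged 2.89 ± 0.03 (SD) in fresh and 3.30 ± 0.30 in cultured cells. All fresh values lay within background, and the cultured mean lay at the mean background of the cultured arrays, also 3.30, with cultured replicate 1 below it, so no fold is given. The fitted difference of 0.41 had a limma adjusted p of 0.275. Comp differed by 0.01 ± 0.13 (SE), with an interval of -0.28 to 0.30 that leaves out a 2-fold change of the array signal. Its values of 3.90 to 4.06 lay not far above the background of 3.17 to 3.40. RMA pulls differences near background towards 0, so the interval does not bound the change in RNA. Cilp2 differed by 0.27 ± 0.23, within the spread of its cultured arrays (SD 0.43), at a limma adjusted p of 0.626. It was 0.03 without cultured replicate 2, the array of its highest value, 0.45 without cultured replicate 3 and 0.10 with array weights.

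The fresh means of Thbs4 and Tnmd rested on 1 array. Thbs4 averaged 4.33 ± 1.61 (SD) in fresh and 3.70 ± 0.25 in cultured cells, a difference of -0.63 ± 0.69 (SE) with a limma adjusted p of 0.704. Without fresh replicate 1 the difference turned to 0.26 ± 0.30. Tnmd averaged 3.45 ± 1.23 and 2.73 ± 0.24, a difference of -0.72 ± 0.53 with a limma adjusted p of 0.555, and without fresh replicate 1 it was -0.01 ± 0.20. The cultured values of Tnmd were all within background, as were those of fresh replicates 2 and 3, so no fold between the groups is given.

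**Figure D4:**
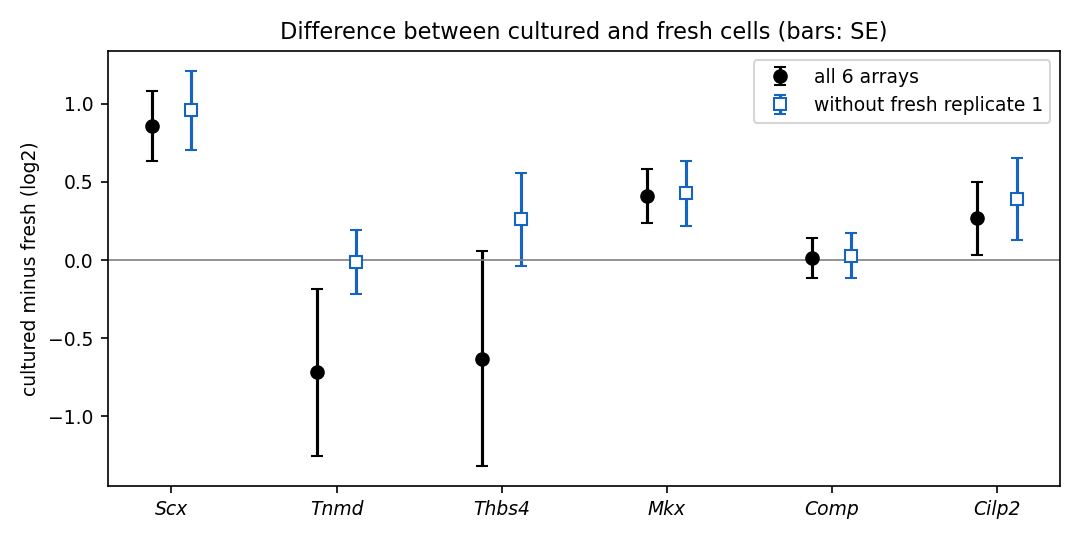
Cultured minus fresh difference (log2, vertical axis) with its standard error for the 6 tendon cell genes, fitted on all 6 arrays (black circles) and without fresh replicate 1 (open blue squares). Thbs4 moves from -0.63 to 0.26 and Tnmd from -0.72 to -0.01, while Scx stays above 0 at 0.86 and 0.96.

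Some genes in the rest of the tendon list passed the culture test. Of the 43 genes outside the set, 9 fell and none rose past the test by limma, with a median of -0.20, where 3.37% of all genes fell and 0.953% rose. Other lists fell too: 15 of 20 satellite cell genes (median -1.99) and 7 of 18 fibro-adipogenic genes (median -0.67) were lower past the test, so nothing particular to tendon genes is read from this count. The 9 tendon list genes were the small proteoglycans Dcn (-4.52), Ogn (-2.95), Prelp (-2.90) and Bgn (-1.85), the early-response factors Egr1 (-5.22) and Egr2 (-3.71), Tppp3 (-1.84), a marker of the tendon sheath, the protease Htra3 (-1.12) and the collagen chain Col3a1 (-1.08). Several of these are also genes of muscle fibroblasts, and Dcn, Bgn and Egr1 are expressed well beyond tendon. Dcn was within background on every cultured array, and Ogn exceeded it on 1 of them, so the sizes of their differences are uncertain. Col3a1 no longer passed when fresh replicate 1, fresh replicate 2 or cultured replicate 3 was left out, or after quantile normalization or cyclic loess. Tnc, a matrix protein of tendon and injured muscle, was at 1.38 with a limma adjusted p of 0.0507 and rose past the test in 9 of 15 other settings. All fresh values of Tnc lay within background. Prelp, at 7.19, 7.11 and 6.91 on the fresh arrays, was even across the fresh arrays and lower on every cultured array.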

How the data were processed

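Biotin-labelled RNA of 6 samples was measured on Affymetrix arrays, per the labels' protocols. The authors deposited log2 expression values of 35556 probe sets, made with RMA and oligo per the submitters' processing notes, with no version stated. RMA pulls differences near background towards 0. A genome build was not given in the sources used here. Of the probe sets, 21789 had 1 gene by the platform annotation and were used, 1621 with several genes were left unnamed, and 12146 had no entry. Symbols were updated through GRCm38.p6, and each gene was read from its brightest probe set on average.

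Group differences were fitted with limma 3.58.1 (R 4.3.3), lmFit and eBayes, with the group as the only term and no filter on dim genes. The code was tested on simulated data. The 6 genes, the 12 lists, the motifs and the rule for named genes were chosen with earlier results of these data known. That rule names, besides the 6 genes, 10 tendon list genes and 3 of each other list by size of difference on fresh replicate 1, the 10 genes furthest apart there each way, and the nearest genes by r. From the genes furthest apart and those nearest by r, receptor, predicted, small RNA and immunoglobulin genes were left out. Genes named outside that rule, among them Col1a1, Prelp, Tnc, Acan, Col2a1, Pecam1 and Ptprc, were chosen after their values were seen. Alternatives were 3 further scalings, 2 other probe set rules, a filter on dim genes, a replicate block, another prior, array weights and leaving out each array.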

Additional observations from a re-analysis of the deposited data

How the results depend on the processing

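The count of 861 genes became 1595 after quantile normalization, 1515 with cyclic loess and 1742 with array weights, and ran from 448 to 1517 on leaving out 1 array (cultured replicate 3 left out gave 448, fresh replicate 3 gave 471, fresh replicate 2 gave 478 and cultured replicate 1 gave 1517). The share of these genes that were higher in culture was 22.1% as deposited, 43.8% after quantile normalization and 32.9% with cyclic loess. Of the 6 tendon cell genes, 1 passed under each of quantile normalization, cyclic loess and array weights, which was Scx, and the cause was not tested. Comp changed sign near 0, to -0.00757 after quantile normalization, -0.0656 with cyclic loess and -0.0495 with arrays centred on their median, and it ran from -0.0306 to 0.0417 on leaving out 1 array. Thbs4 ran from -1.30 to 0.26 on leaving out 1 array. On fresh replicate 1 the difference of Thbs4 stayed between 2.53 and 2.72 and that of Tnmd between 2.09 and 2.12 in 6 other settings. The 129 genes apart by 1 on that array became 1304 at 0.5 and 4 at 2. The count of 9 tendon list genes past the test ran from 8 to 13 in settings added after the data were seen. Deviations from the group means correlated at -0.09, -0.14 and 0.03 between same-numbered fresh and cultured arrays, and at -0.07 to 0.15 between the others. With 3 arrays a group this check can neither show nor exclude a pairing, which the labels do not state. With a replicate block 662 genes passed, none of the 6 among them. Near background, array signal limits Tnmd, Mkx, Thbs4 and Comp.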
